A study of Sus scrofa with 11 samples.

Results

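Neutrophils are short-lived white blood cells that leave the blood for injured or infected tissue. CSF3R, the receptor for granulocyte colony-stimulating factor, carries the signal under which the bone marrow makes and releases them. S100A8, S100A9 and S100A12 are small calcium-binding proteins that fill the neutrophil cytosol and act as alarm signals once released, while CXCR2 guides the cells along chemokine gradients. Myeloperoxidase (MPO), the cytosolic NADPH oxidase subunit NCF1 and the gelatinase MMP9 serve the killing of microbes and the passage through tissue. Monocytes and macrophages also make several of these transcripts, among them S100A8, S100A12, NCF1 and MMP9.

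The 8 genes listed here as neutrophil markers were CSF3R, S100A12, S100A8, S100A9, CXCR2, MPO, NCF1 and MMP9, and they were looked up by symbol in a table of 12505 pig genes. Of these 8, 6 were paired with a row, and all 6 entered the tests on 11644 genes. S100A9 and CXCR2 were paired with no row and are not analysed here. The libraries came from the liver of pigs (Sus scrofa) labelled wild type, with hepatocyte as the labelled cell type. There were 2 control libraries at day 0, and 3 libraries each at 20 Gy, 30 Gy and 40 Gy of hepatic irradiation, all at day 35. The control titles also carry the word for irradiation, and what these animals received is not said, so dose and elapsed time cannot be told apart in any comparison with control. Age, sex and breed were not given in the labels, nor whether each library was a separate animal, so a p-value here measures how far single libraries scatter, and that scatter may be technical.

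Levels are in FPKM, fragments per kilobase of transcript, scaled to the mapped fragments of each library, which allows levels of different genes to be compared. The depth of the libraries is unknown, the FPKM summed to 520839 to 949840 per library, and 10236 to 10866 genes reached 1 FPKM. Libraries 30Gy-1 and 30Gy-2 were nearly the same, with an SD of the log2 ratio of 0.137 over 4806 genes, and were averaged and counted as 1 sample. Libraries 20Gy-3 and 30Gy-3, of different doses, were as close (0.130), while the other 53 pairs ranged from 0.305 to 1.01. Library 40Gy-1 stood apart from its group: its nearest library was 20Gy-2 (0.627), whereas 40Gy-2 and 40Gy-3 lay 0.35 apart. In 40Gy-1, 10 genes were listed at 0 that reached at least 1 FPKM in each of the other 10 libraries, against 0 or 1 such genes in any other library. They included the Y-linked gene EIF1AY, at 13.7 to 23.1 FPKM elsewhere, and an unnamed gene at 14190 to 92350 FPKM elsewhere. A listed 0 can be a failed estimate, and below it is given as a listed value. The labelled hepatocytes had their markers: ALB lay between 7050.0 and 42547 FPKM. In bulk tissue, fewer cells of a type and less RNA per cell cannot be told apart.

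The marker genes were low in every library, and CSF3R, S100A12 and S100A8 were higher at 40 Gy than at the lower doses, while MPO, NCF1 and MMP9 did not pass the test. Ranked by its mean over the libraries among all genes of the table, S100A12 stood at percentile 30.7, CSF3R at 13.7 and MPO, the lowest, at 5.62. Set against the mean of the 20 Gy and 30 Gy groups, 3 of the 6 genes were called higher at 40 Gy, where 8.09% of all genes tested were called higher and 15.3% were called in either direction. Of the 1782 genes called in that comparison, 52.9% were higher, a split that became 39.0% higher among 1665 genes after scaling each library to its median. The median change over the 6 markers was 0.73 on the log2 scale, beside 0.07 over all genes tested. The markers were chosen with earlier results of these data known, and the 3 called genes entered the tests through their 40 Gy values. The share called and the median are therefore descriptions and no test of the set. The FPKM of the 6 genes added up to 12.6, 12.3 and 18.8 in the 40 Gy libraries, to 2.15 to 3.44 at the lower doses, and to 6.14 and 2.12 in the controls. In 40Gy-3, S100A12 gave 11.4 and S100A8 gave 4.46 FPKM of the sum. MMP9 gave 3.08 FPKM in 40Gy-1, against 0.0968 and 0.112 FPKM in 40Gy-2 and 40Gy-3. Changes are differences of log2(FPKM + 1), which are small for genes near 1 FPKM, and come from limma with Benjamini-Hochberg adjustment over all genes tested.

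**Figure D1:**
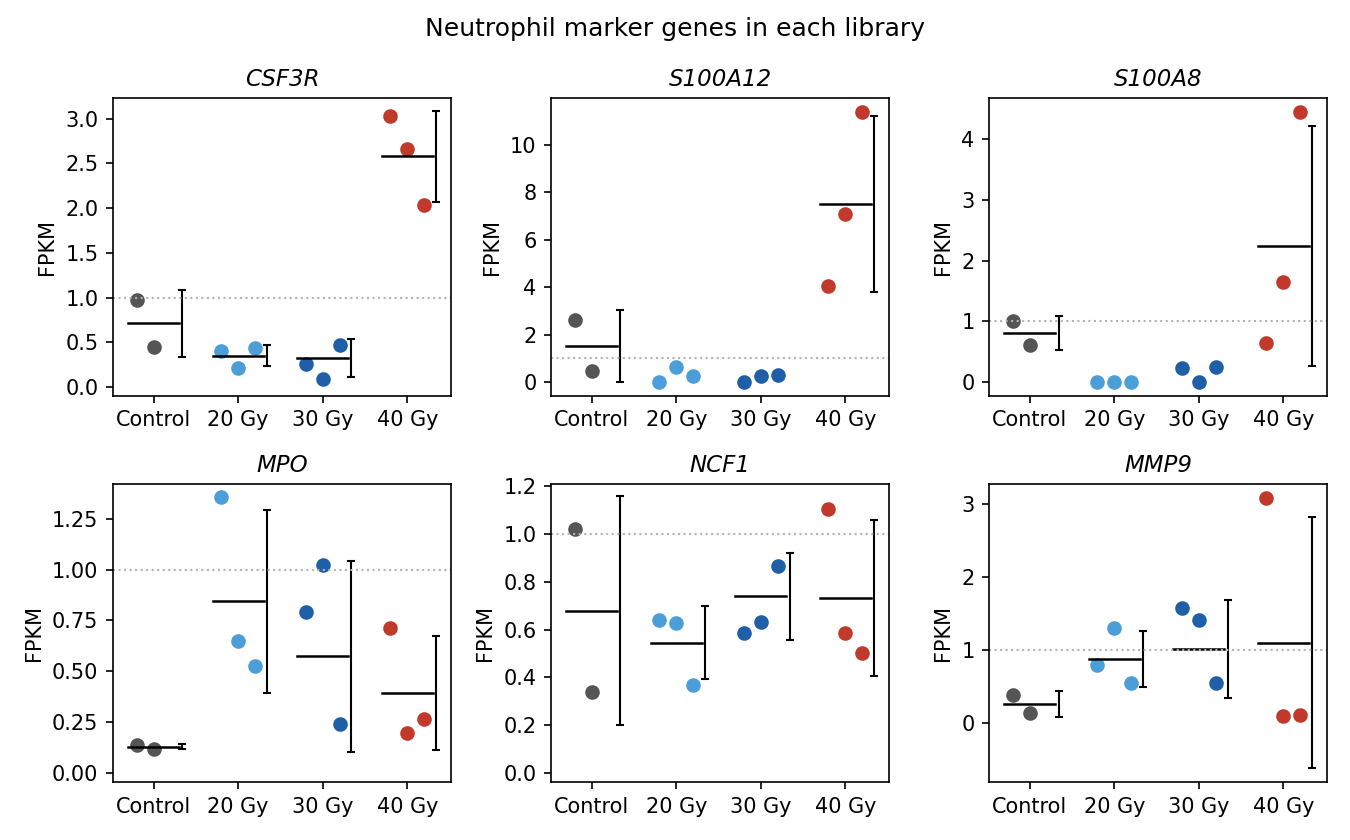
FPKM (linear axis) of the 6 neutrophil marker genes in each of the 11 libraries, as points by group, with the group mean as a bar, the SD as an error bar beside it and a dotted line at 1 FPKM. The 30 Gy mean and SD count the near-identical 30Gy-1 and 30Gy-2 as 1 sample, no mean is drawn for a group with a library listed at 0, and CSF3R at 40 Gy (2.04 to 3.03 FPKM) lies above all other libraries.

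CSF3R (ENSSSCG00000025795, Sscrofa11.1 chromosome 6, 92550159 to 92565798, gene table of RefSeq) is the receptor of the set. Its level at 40 Gy was 3.03, 2.67 and 2.04 FPKM in libraries 1 to 3. At 20 Gy it was 0.397, 0.217 and 0.442 FPKM, and at 30 Gy it was 0.256, 0.0938 and 0.473 FPKM. The controls had 0.978 and 0.447 FPKM. All 3 libraries at 40 Gy were higher than the other 8, a pattern found in 7.69% of the genes tested, and no library of another group reached 1 FPKM. CSF3R therefore entered the tests through its 40 Gy values, and without any minimum the call held (adjusted p = 0.00188, limma with Benjamini-Hochberg adjustment over 12476 genes). Group means were 2.58 ± 0.505 FPKM at 40 Gy (SD, n = 3), 0.712 ± 0.375 in controls (SD, n = 2), 0.352 ± 0.119 at 20 Gy (SD, n = 3) and 0.324 ± 0.210 at 30 Gy (SD, n = 2). In this order only the step between 40 Gy and control passed the test, and the neighbours below it did not.

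Between 40 Gy and the lower doses CSF3R rose by 1.42 on the log2 scale (SE 0.175, limma adjusted p = 0.00191), a 2.67-fold change of FPKM + 1. With a pseudocount of 0.1 in place of 1 the rise was 2.66, and the call held in each of the 20 alternatives run for it, including the fit without libraries 20Gy-3 and 30Gy-3 (1.52). Between 40 Gy and control CSF3R rose by 1.07 (SE 0.217, limma adjusted p = 0.0276), the only 1 of the 6 genes called there, beside 1.86% of all genes called higher and 4.68% called in either direction. This second call was lost without control-1 (limma adjusted p = 0.0774), control-2 (0.174), 20Gy-1 (0.058), 20Gy-3 (0.0508) or 40Gy-2 (0.0961), without 20Gy-3 and 30Gy-3 together (0.083), and with a pseudocount of 0.1 (0.0749). At 20 Gy and 30 Gy the change from control was -0.33 and -0.36, with limma adjusted p = 0.432 and 0.594. The 20 Gy libraries lay just below both controls, by 0.442 against 0.447 FPKM at the nearest, as 23.2% of the genes tested did, whereas the 30 Gy libraries overlapped them. CSF3R overlaps the long non-coding gene LOC102167570, and since no source used here gives the strand setting, reads of the pair may be mixed.

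S100A12 (ENSSSCG00000032857, chromosome 4, 96225691 to 96227030), the alarm protein also called calgranulin C, was the most abundant of the markers. It was at 4.04, 7.10 and 11.4 FPKM in the 40 Gy libraries. The controls had 2.62 and 0.468 FPKM. At 20 Gy it was listed at 0, 0.633 and 0.27 FPKM, and at 30 Gy at 0, 0.247 and 0.287 FPKM. Again all 3 libraries at 40 Gy were higher than the other 8, and control-1 was the highest of the rest. The controls lay above all 30 Gy libraries, as 23.3% of the genes tested did, and overlapped the 20 Gy libraries.

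Between 40 Gy and the lower doses S100A12 rose by 2.69 on the log2 scale (SE 0.359, limma adjusted p = 0.00249), a 6.44-fold change of FPKM + 1. Outside 40 Gy only control-1 reached 1 FPKM, so S100A12 too entered the tests through its 40 Gy values, and without any minimum its limma adjusted p was 0.00268. The rise was 4.56 with a pseudocount of 0.1, was 2.73 without 20Gy-3 and 30Gy-3, and passed the test in each of its 21 alternatives. Against control the difference at 40 Gy was 1.79 (SE 0.445, 95% interval 0.79 to 2.79), with a limma adjusted p of 0.055, just short of the threshold. That p was 0.0117 without 40Gy-1 and 0.0339 with all 11 libraries taken as separate samples. With single libraries left out, this difference ranged from 1.14 to 2.44. Against control the 20 Gy and 30 Gy groups differed by -0.85 and -0.94, with limma adjusted p = 0.323 and 0.485.

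S100A8 (ENSSSCG00000006590, chromosome 4, 96209670 to 96210603), which pairs with S100A9 to form calprotectin, lies 15087 bases from S100A12, with no gene of the table between them. S100A9 follows at 9083 bases on the other side of S100A12. S100A8 was at 0.637, 1.64 and 4.46 FPKM in the 40 Gy libraries and at 1.0 and 0.614 FPKM in the controls. It was listed at 0 in all 3 libraries at 20 Gy and in 30Gy-2, and at 0.228 and 0.248 FPKM in 30Gy-1 and 30Gy-3. The 40 Gy libraries lay above all lower-dose libraries, as did 1516 of the 11644 genes tested, but overlapped the controls, and 40Gy-1 was only just above control-2. Both controls lay above every lower-dose library, where 23.2% of the genes tested were lower without overlap at 20 Gy and 23.3% at 30 Gy. S100A8 rose by 1.40 between the lower doses and 40 Gy (SE 0.328, limma adjusted p = 0.0234). It reached 1 FPKM in control-1, 40Gy-2 and 40Gy-3 only, so it entered the tests through its 40 Gy values, and without any minimum its limma adjusted p was 0.0242. That call was lost without 20Gy-1 (limma adjusted p = 0.053), 20Gy-3 (0.0518), 30Gy-3 (0.0692) or 40Gy-2 (0.0853), and without 20Gy-3 and 30Gy-3 together (0.133). Its size was 3.45 with a pseudocount of 0.1. Against control the difference at 40 Gy was 0.67 (limma adjusted p = 0.369), and it was 1.08 without 40Gy-1 (0.0419) and 0.21 without 40Gy-3. Because the 20 Gy group was listed at 0, no fold is given against it.

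**Figure D2:**
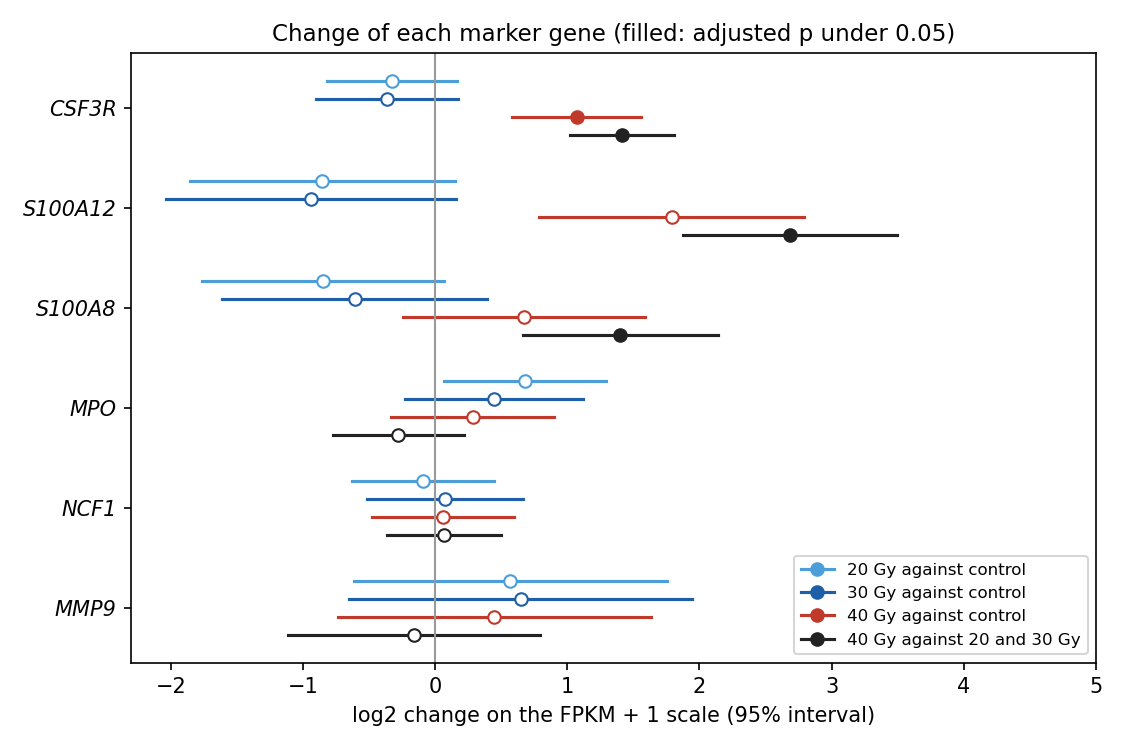
Change of each marker gene as a difference of log2(FPKM + 1), with its 95% interval, for each dose against control and for 40 Gy against the mean of 20 Gy and 30 Gy. Filled points passed an adjusted p of 0.05 in limma: CSF3R in 2 comparisons (1.07 and 1.42), S100A12 (2.69) and S100A8 (1.40) in 1 each, and no point of MPO, NCF1 or MMP9.

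MPO (ENSSSCG00000017637, chromosome 12, 34557031 to 34570091), the chlorine-oxidising enzyme of the primary granules, had another order of levels. It was at 0.139 and 0.121 FPKM in the controls. At 20 Gy it was at 1.36, 0.649 and 0.525 FPKM, at 30 Gy at 0.790, 1.02 and 0.241 FPKM, and at 40 Gy at 0.713, 0.199 and 0.267 FPKM. All 9 irradiated libraries were above both controls, a pattern held by 5.42% of the genes tested, and the 40 Gy libraries overlapped those of the lower doses. The largest difference from control was at 20 Gy, 0.68 on the log2 scale (SE 0.273, 95% interval 0.06 to 1.29), with an unadjusted p of 0.0339 and an adjusted p of 0.214 in limma. Over the 3 doses together it was 0.47 (limma adjusted p = 0.342), and between 40 Gy and the lower doses it was -0.28 (95% interval -0.77 to 0.22, limma adjusted p = 0.404).

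NCF1 (ENSSSCG00000007722, chromosome 3, 11820367 to 11834394), which carries the other cytosolic oxidase subunits to the membrane, was at 1.02 and 0.34 FPKM in the controls. At 20 Gy it was at 0.638, 0.629 and 0.369 FPKM, at 30 Gy at 0.588, 0.633 and 0.867 FPKM, and at 40 Gy at 1.10, 0.587 and 0.503 FPKM. Every group overlapped every other. Between 40 Gy and the lower doses the difference was 0.07 (95% interval -0.37 to 0.50, limma adjusted p = 0.83), so a rise of the size seen in CSF3R lay outside the interval.

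MMP9 (ENSSSCG00000007436, chromosome 17, 48179690 to 48186782), which neutrophils store in their granules and macrophages also secrete, was at 0.386 and 0.130 FPKM in the controls. At 20 Gy it was at 0.80, 1.30 and 0.541 FPKM, and at 30 Gy at 1.57, 1.41 and 0.542 FPKM. At 40 Gy it was at 3.08, 0.0968 and 0.112 FPKM, so that 40Gy-1 was the highest library and the remaining 2 were the lowest. Its difference between 40 Gy and the lower doses was -0.16 (95% interval -1.11 to 0.80, limma adjusted p = 0.817). Library 40Gy-1 decided the value: without it MMP9 fell by 0.79 (limma adjusted p = 0.0296), and without 40Gy-2 or 40Gy-3 the difference was 0.16 or 0.15. All lower-dose libraries were above the controls, where 19.1% of the genes tested were higher without overlap at 20 Gy and 20.1% at 30 Gy, and the differences of 0.57 and 0.65 had limma adjusted p = 0.581 and 0.695.

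In the remaining comparisons no marker passed the limma test. Between 20 Gy and control 0 of 6 were called, beside 2.53% of all genes, and 1 had an unadjusted p under 0.05. Between 30 Gy and control 0 of 6 were called, beside 1.12%, and 0 had an unadjusted p under 0.05. The mean of the irradiated groups gave 0 of 6 against control, beside 2.89%, again with 0 at an unadjusted p under 0.05. Between 30 Gy and 20 Gy 0 of 6 markers and 0% of all genes were called, and 64 of the 11644 genes had an unadjusted p under 0.05.

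**Figure D3:**
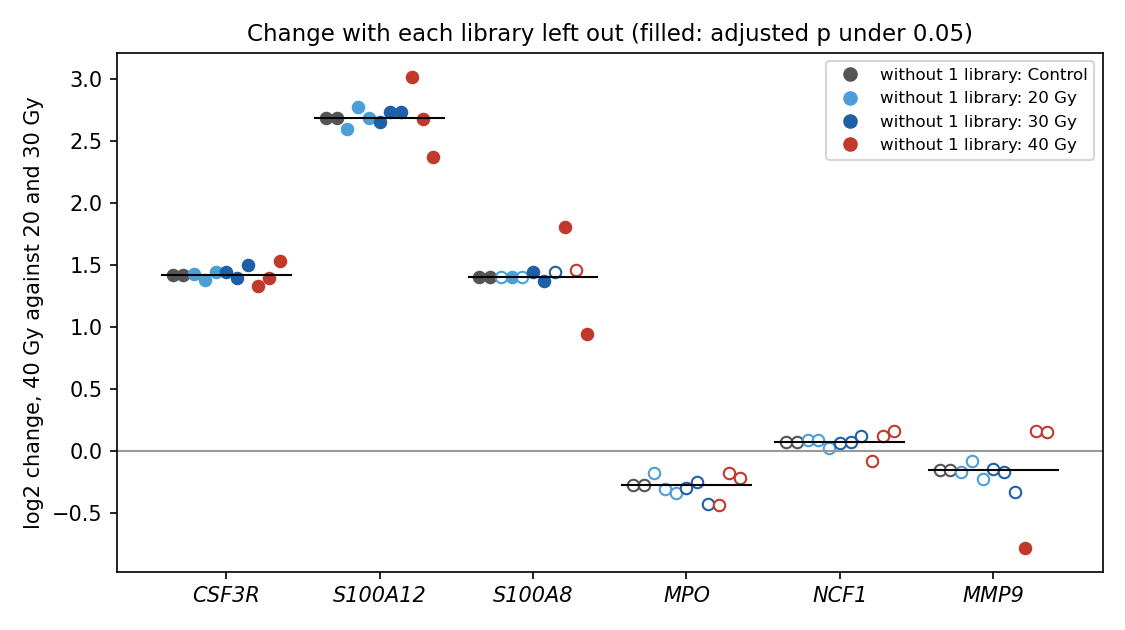
Change between 40 Gy and the mean of 20 Gy and 30 Gy, as a difference of log2(FPKM + 1), with each of the 11 libraries left out in turn; bars mark the value with all libraries, colours the group of the library left out, and filled points an adjusted p under 0.05 in limma. CSF3R (1.32 to 1.53) and S100A12 (2.37 to 3.02) stayed filled throughout, S100A8 ranged from 0.94 to 1.81, and MMP9 from -0.79 to 0.16.

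The markers varied along different lines. Over the 10 columns of the fit, S100A12 had a Pearson r of 0.898 with CSF3R and 0.912 with S100A8 on the log2 scale, and CSF3R and S100A8 had 0.722. MPO went with MMP9 (0.658) and against S100A8 (-0.562), and NCF1 had 0.534 with MMP9 and 0.345 with CSF3R. These are descriptions over columns that share their group means, as are the likeness values that follow. Among 9447 genes, those with the pattern most like CSF3R were USP25, a deubiquitinase (r = 0.980), SPPL2A, an intramembrane protease (0.972), ENPP6 (0.951), LIMS1 (0.950) and PIK3R4 (0.948). Those most like S100A12 were SOD2, the mitochondrial superoxide dismutase (0.974), METTL8 (0.973), PPA1 (0.970), NSF (0.969) and DNAAF10 (0.967).

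Of 22 granule proteins listed, 6 were paired with a row by symbol and 3 were tested, and 0 were called in any comparison by limma. Of all rows, 1944 carry no symbol, so a gene that was not paired may still be among them. The defining granule genes ELANE, PRTN3, AZU1, CTSG, LTF, CAMP and MMP8 were not paired with a row. At an unadjusted p under 0.05, 1 of the 3 passed in limma between 40 Gy and the lower doses, and 1 between 40 Gy and control. LCN2, the iron-siderophore binder of the secondary granules, was at 0.801, 2.21 and 2.74 FPKM at 40 Gy, inside or above a range of 0.377 to 2.05 at the lower doses (difference 0.40, limma adjusted p = 0.317). The antibacterial enzyme lysozyme, LYZ, was listed at 0 in 40Gy-1 and stood at 9.82 and 9.02 FPKM in 40Gy-2 and 40Gy-3, against 2.17 to 4.56 FPKM in the other 8. ARG1, which in liver is chiefly the hepatocyte urea-cycle arginase, was at 441, 1878 and 1763 FPKM at 40 Gy (difference from the lower doses 1.18, limma adjusted p = 0.11). The 3 granule genes below the minimum are given as levels, and were tested only in the fit without any minimum. BPI, the bactericidal protein of the primary granules, was listed at 0 in both controls, at 0 to 0.0735 FPKM at the lower doses, and at 3.08, 0.742 and 0.807 FPKM at 40 Gy. CHI3L1, a chitinase-like protein, was at 1.12, 0.751 and 0.236 FPKM at 40 Gy, at 0 to 0.286 FPKM at the lower doses, and at 0.396 and 0.0259 FPKM in the controls. MMP25, a membrane-bound protease of leukocytes, was at 0.678, 0.435 and 0.129 FPKM at 40 Gy, at 0.465 to 1.07 FPKM at the lower doses, and at 0.175 and 0.12 FPKM in the controls. BPI was thus higher in the 40 Gy libraries than in the rest, a pattern found in 7.69% of the genes tested, but it reached 1 FPKM only in 40Gy-1. CHI3L1 and MMP25 overlapped, and without any minimum neither passed between 40 Gy and the lower doses (limma adjusted p = 0.078 and 0.172).

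Of 19 listed receptors and adhesion molecules, 7 were tested, and 2 rose and 0 fell between the lower doses and 40 Gy, with a median of 0.77, where 8.09% of all genes tested were higher and 7.21% lower. TLR2, the receptor for bacterial lipoproteins, was at 6.13, 6.65 and 6.30 FPKM at 40 Gy and at 1.55 to 3.97 FPKM in all other libraries. It rose by 0.88 from the lower doses (limma adjusted p = 0.0214) and by 1.19 from control (0.031). CD14, the lipopolysaccharide co-receptor of monocytes and macrophages, rose by 0.90 from the lower doses (limma adjusted p = 0.0299), from 198 to 319 FPKM to 354, 548 and 416 FPKM.

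The NADPH oxidase list had 6 of 7 genes tested, and 0 were called in any comparison by limma, with 3 at an unadjusted p under 0.05 between 40 Gy and the lower doses. Its most abundant genes were RAC1, at 78.1, 103 and 83.9 FPKM at 40 Gy against 53.5 to 73.8 FPKM at the lower doses (0.51, limma adjusted p = 0.0797), and CYBA, the small membrane subunit (0.08, 0.901). RAC2, the blood-cell form of the small GTPase, was at 11, 5.76 and 4.25 FPKM at 40 Gy and at 8.62 to 12.6 FPKM at the lower doses (-0.65, limma adjusted p = 0.14). CYBB, the catalytic subunit, was not paired with a row.

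Of 25 attractants, growth factors and adhesion ligands, 14 were tested and 1 rose between the lower doses and 40 Gy, a share close to the 8.09% of all genes called higher. This was ALOX5AP, which presents arachidonate for leukotriene synthesis (1.85, SE 0.411, limma adjusted p = 0.02). It was at 31.4, 13.2 and 13.5 FPKM at 40 Gy, 2.17 to 7.79 FPKM at the lower doses, and 12.7 and 8.89 FPKM in the controls. Its values in 40Gy-2 and 40Gy-3 were thus only just above control-1, and no gene of the list was called at 40 Gy against control. Between the lower doses and 40 Gy the list's median was -0.18. CSF3, the ligand of CSF3R, was at 1.21, 0.843 and 1.15 FPKM at 40 Gy, inside the range of 0.594 to 1.44 FPKM at the lower doses. CXCL8, a neutrophil attractant that signals through CXCR2, was at 0.705, 0.229 and 0.361 FPKM at 40 Gy and at 0.344 to 1.77 FPKM at the lower doses. CSF3 and CXCL8, like CCL3L1 below, were picked for this text after their values were seen.

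The lower-dose libraries fell into sets that crossed the doses. CCL3L1, a chemokine of the macrophage inflammatory protein family, was at 83.8, 105 and 132 FPKM in 20Gy-1, 20Gy-3 and 30Gy-3, and at 3.51, 2.83 and 4.76 FPKM in 20Gy-2, 30Gy-1 and 30Gy-2. CYP2E1, a cytochrome P450 of hepatocytes, was at 62.3, 60.4 and 63.5 FPKM in the first 3 and at 1126, 1091 and 1091 FPKM in the other 3. MMP9 was lower in the first 3, at 0.80, 0.541 and 0.542 FPKM, than in the others, at 1.30, 1.57 and 1.41 FPKM. CSF3R was at 0.397, 0.442 and 0.473 FPKM in the first 3 and at 0.217, 0.256 and 0.0938 FPKM in the others, each far below 40 Gy. This split was seen in the data and is given without a test.

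Transcription factors and signalling genes of the myeloid line had 13 of 16 tested, with 3 higher and 0 lower at 40 Gy than at the lower doses, beside 8.09% and 7.21% of all genes. SPI1 (PU.1), the factor that sets myeloid fate, was at 73.3, 87.7 and 95.2 FPKM at 40 Gy, 19.7 to 33.7 FPKM at the lower doses, and 19.2 and 21.0 FPKM in the controls. It rose by 1.75 from the lower doses (SE 0.206, limma adjusted p = 0.00161), in each of its 21 alternatives, and by 2.03 from control (SE 0.256, limma adjusted p = 0.00612), a call lost without control-1 (0.0553). LYN, a Src-family kinase, rose by 1.2 from the lower doses (limma adjusted p = 0.0144), and its values of 23.6 and 20.7 FPKM in 40Gy-2 and 40Gy-3 exceeded 10.3 FPKM in 40Gy-1. JAK2, the kinase that CSF3R engages, rose by 0.56 (limma adjusted p = 0.042), from 0.871 to 1.5 FPKM to 1.72, 2.13 and 2.49 FPKM.

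No other S100 gene measured was called beside S100A12 and S100A8. All 7 measured of 13 listed were tested and 0 were called in any comparison by limma, with 2 at an unadjusted p under 0.05 between 40 Gy and the lower doses. The 3 most abundant were S100A1 (-0.65, limma adjusted p = 0.0629), S100A11 (0.36, 0.554) and S100A10 (-0.49, 0.208). Of the matrix proteases and inhibitors beside MMP9, 9 of 14 were tested, and 1 rose between the lower doses and 40 Gy, a share close to the 8.09% of all genes called higher. This was MMP2, the gelatinase of fibroblasts and stellate cells, at 13, 11.5 and 6.76 FPKM at 40 Gy, 2.58 to 6.16 FPKM at the lower doses and 2.46 and 2.15 FPKM in the controls. It rose by 1.18 from the lower doses (limma adjusted p = 0.0155) and by 1.75 from control (0.0167). TIMP3, an inhibitor of such proteases, was at 14 and 14.3 FPKM in the controls and 29.8 to 60.4 FPKM in the irradiated libraries. It rose against control at 20 Gy (1.5, limma adjusted p = 0.0364), at 40 Gy (1.61, 0.0227) and over the mean of the doses (1.47, 0.0226).

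**Figure D4:**
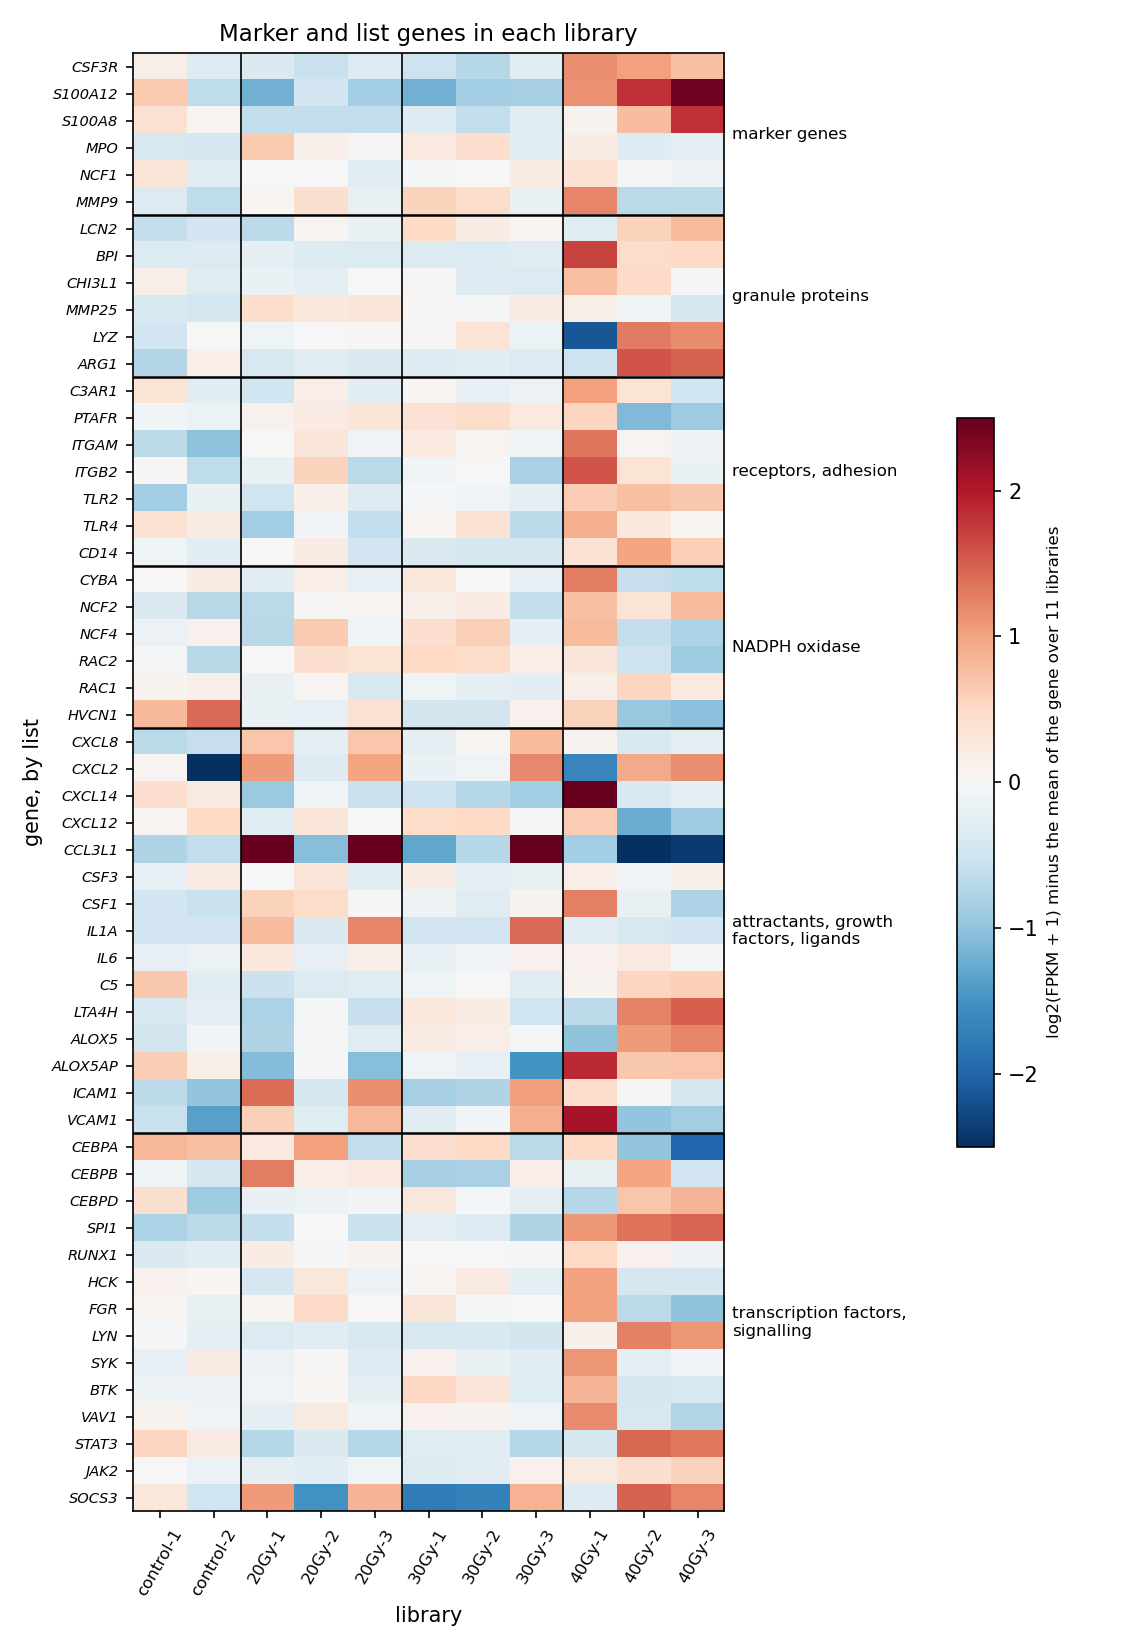
Neutrophil marker genes and the genes of 5 lists around them, 1 row per gene in the table and 1 column per library; colour is the difference of log2(FPKM + 1) from the gene's mean over the libraries and saturates at the ends of the scale. The rows of CSF3R, S100A12 and SPI1 are high in all 3 columns at 40 Gy and S100A8 in 40Gy-2 and 40Gy-3, whereas MMP9 is high in 40Gy-1 and low in 40Gy-2 and 40Gy-3.

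Some markers of other cells also differed between 40 Gy and the lower doses. Among them were some of macrophages and monocytes, which make several of the marker transcripts. Of 11 macrophage and Kupffer cell genes tested, 3 rose between the lower doses and 40 Gy and 0 fell, beside 8.09% higher and 7.21% lower over all genes, with CD68 up by 1.59 (limma adjusted p = 0.0348) and CD163 by 2.0 (0.0368) beside CD14. CD163 followed the split of the lower-dose libraries, at 9.5, 9.58 and 9.95 FPKM in 20Gy-1, 20Gy-3 and 30Gy-3 and at 38.9, 43.2 and 41.4 FPKM in 20Gy-2, 30Gy-1 and 30Gy-2, against 76.3, 74.4 and 72.5 FPKM at 40 Gy. CD68 had the same split, at 9.32 to 11.8 and 19.7 to 27.1 FPKM, and without 20Gy-3 and 30Gy-3 the changes were 1.21 for CD68 (limma adjusted p = 0.203) and 1.34 for CD163 (0.188). Against control, 0 of the 11 macrophage genes were called at 40 Gy, beside 4.68% of all genes tested. The controls had 31.7 and 27.2 FPKM of CD68, against 79.7, 42.0 and 28.8 FPKM at 40 Gy, and 47.3 and 34.5 FPKM of CD163. In 40Gy-2 and 40Gy-3, C1QA, C1QB, C1QC and TIMD4 were below both controls, while CD163, CD14 and MARCO were above both, as seen in the data. The summed FPKM of the macrophage list was 1584, 1078 and 935 at 40 Gy, 550 to 1073 at the lower doses, and 1169 and 914 in the controls. Both classical monocyte genes paired with a row, of 4 listed, rose: CD14 and VCAN (0.59, limma adjusted p = 0.0399). VCAN reached 1 FPKM only in 40Gy-1 and 40Gy-2 and so entered the tests through that group, and without any minimum its limma adjusted p was 0.0367. The monocyte sum was 356, 549 and 417 FPKM at 40 Gy and 199 to 320 FPKM at the lower doses. Nearly all of it was CD14 (354, 548 and 416 FPKM at 40 Gy), a gene also counted in the receptor and macrophage lists. The monocyte genes FCN1 and CCR2 were not paired with a row. The plasma cell genes JCHAIN (1.62, limma adjusted p = 0.00247) and MZB1 (1.14, 0.0359) rose as well, 2 of the 3 B and plasma cell genes tested, against the same 8.09% of all genes. The third, the B cell gene CD79A, was not called there. Its change from control at 40 Gy was -0.99 (limma adjusted p = 0.0333), where 2.82% of all genes tested were lower, while JCHAIN and MZB1 rose (2.56 and 1.94). That call of CD79A was lost without either control. The B and plasma cell list summed to 110, 82.3 and 71.2 FPKM at 40 Gy and 40.2 to 45.5 FPKM at the lower doses.

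Of the other lists, some had genes called lower and the rest held no call. The hepatocyte list had 0 higher and 3 lower of 9 between the lower doses and 40 Gy, where 7.21% of all genes tested were lower: ALB by -1.93 (limma adjusted p = 0.0031), TTR by -2.20 (0.0189) and ASGR1 by -1.49 (0.0072). The hepatocyte sum was 29317, 30247 and 32042 FPKM at 40 Gy and 46242 to 62407 FPKM at the lower doses. Of this, ALB was 10810.5, 7119 and 7050 FPKM at 40 Gy and 27264 to 35552 FPKM at the lower doses. CYP2E1 and FGB, not called and picked here after their values were seen, had other patterns. CYP2E1 was at 1385, 1859 and 1730 FPKM at 40 Gy, 60.4 to 1126 FPKM at the lower doses, and 1310 and 1092 FPKM in the controls. FGB was at 4958, 14372 and 16233 FPKM at 40 Gy and 3406 to 7522 FPKM at the lower doses. The red cell list, a gauge of blood in the tissue, had 1 of 4 genes lower, beside 7.21% of all genes: HBM (-1.51, limma adjusted p = 0.0201). It summed to 55.4, 11.7 and 15.5 FPKM at 40 Gy, 59.4 to 342 FPKM at the lower doses, and 833 and 109 FPKM in the controls. Among T and NK cell genes 1 of 7 was lower, again beside 7.21%: CD3E (-0.77, limma adjusted p = 0.0225), with sums of 44.8, 15.4 and 13.2 FPKM at 40 Gy and 20.3 to 26.9 FPKM at the lower doses. Of the eosinophil, basophil and mast cell list 0 of 2 tested genes were called in limma, with 0 at an unadjusted p under 0.05, and summed levels were 0.911 to 1.52 FPKM in all libraries. The platelet list had no gene above the minimum, and its 2 genes summed to 1.34, 1.28 and 1.96 FPKM at 40 Gy and 0.327 to 1.03 FPKM elsewhere. The part of monocytes, macrophages and other cells in the levels of CSF3R, S100A12 and S100A8 was not tested.

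Many of the calls in these lists rested on single libraries. Between 40 Gy and the lower doses, leaving out 40Gy-2 ended 13 of them (limma adjusted p = 0.0529 to 0.149), among them TLR2, CD14, ALOX5AP, LYN, JAK2, MMP2, CD68, CD163, MZB1 and VCAN. Leaving out 30Gy-3 ended 12 (0.055 to 0.119), 40Gy-3 ended 9 (0.0579 to 0.151), 20Gy-1 ended 8 (0.0514 to 0.092) and 20Gy-3 ended 7 (0.0516 to 0.0766). Either control ended 5 (0.0552 to 0.0588), 20Gy-2 ended 2 (0.0569 to 0.0591) and 40Gy-1 ended 1 (0.0511). Between 40 Gy and control, leaving out control-1 ended 9 (0.0553 to 0.222), and control-2 or 40Gy-2 ended 7 each (0.0523 to 0.15 and 0.0561 to 0.104). The call of TIMP3 at 20 Gy was lost without either control, 20Gy-1, 20Gy-3, 30Gy-3 or 40Gy-3 (0.0515 to 0.185), at 40 Gy without either control, 40Gy-2 or 40Gy-3 (0.0651 to 0.14), and over the mean of the doses without either control, 20Gy-1, 20Gy-3 or 30Gy-3 (0.0523 to 0.192). The calls of SPI1, JCHAIN, ALB and ASGR1 between 40 Gy and the lower doses held with each single library left out, but without 20Gy-3 and 30Gy-3 together those of ALB (limma adjusted p = 0.066) and ASGR1 (0.077) were lost.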

How the data were processed

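RNA of 11 pig liver libraries was extracted with Trizol, made into TruSeq RNA libraries and sequenced in pairs of 150 bases (HiSeq), per the labels' protocols. The authors deposited a table of FPKM. Per the submitters' processing notes, which give no roles, HISAT2, Cufflinks and HTSeq were used with Sscrofa11.1 and mm10; the IDs are of pig. No source used here gives strand, annotation or filters. Of 12505 IDs, 10561 matched a symbol in a table of gene names. At most 6.77% of the low values shared a ratio between libraries, so depth is unknown and no counting interval is given.

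Values were analysed as log2(FPKM + 1) in limma 3.58.1 (R 4.3.3): 4 group means, eBayes with trend, 10 columns, 6 residual degrees of freedom, two-sided, Benjamini-Hochberg adjustment, called at an adjusted p under 0.05. Genes with at least 1 FPKM in 2 libraries were tested. The comparisons were each dose and the mean of the doses against control, 40 Gy against the mean of the lower doses, and 30 Gy against 20 Gy. Named were all markers, every list gene called, and otherwise the 3 most abundant of a list. Cell type lists without a call are given as sums, and the other exceptions are marked. Likeness was Pearson r among genes with a symbol and a mean of 1 FPKM, 5 per marker. The fit was tested on simulated data, with changes planted only in genes with a mean log2(FPKM + 1) above 1. CSF3R, S100A8, MPO, NCF1 and MMP9 lie below that level, so the simulation did not cover changes in genes as low. Members and lists were chosen with earlier results of these data known, and 1 gene of the lists is not reported here. Alternatives were other pseudocounts, minimums, scalings, a fit without trend, all 11 libraries as separate samples, a replicate block, and libraries left out.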

Additional observations from a re-analysis of the deposited data

Results flagged for a closer look

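In 3 of the marker genes the response at 40 Gy differed from that at 20 Gy and 30 Gy by a test of the difference itself, with limma and adjustment over all genes. CSF3R differed by 1.42 on the log2(FPKM + 1) scale, higher in 3 of 3 libraries at 40 Gy than in all 6 libraries of the lower doses. S100A12 differed by 2.69 and S100A8 by 1.40, each also higher in 3 of 3 libraries. This lack of overlap was shared by 1516 of the 11644 genes tested. The 6 lower-dose libraries include the near-identical 30Gy-1 and 30Gy-2, which the test counts as 1 sample. The call of S100A8 was lost in 5 of its 20 alternatives. Groups of 2 or 3 libraries were too small for a test of single outlying libraries.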

How the results depend on the processing

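CSF3R and S100A12 between 40 Gy and the lower doses kept their direction and their call in each alternative run. The rise of CSF3R against control did not pass with a pseudocount of 0.1 (1.79) or without 20Gy-3 and 30Gy-3 (1.07), and S100A8 against the lower doses did not pass without that pair (1.44). S100A12 against control passed with all 11 libraries as separate samples (1.79). With 1 library left out at a time, the difference against control ranged from 0.85 to 1.30 for CSF3R, 1.14 to 2.44 for S100A12, 0.21 to 1.08 for S100A8, -0.24 to 0.35 for NCF1 and -0.18 to 0.77 for MMP9. Against the lower doses it ranged from 0.94 to 1.81 for S100A8, -0.0815 to 0.16 for NCF1 and -0.79 to 0.16 for MMP9. The direction turned for NCF1 against control without control-2 (-0.24) and 40Gy-1 (-0.09), for NCF1 against the lower doses without 40Gy-1 (-0.0815), for MMP9 against control without 40Gy-1 (-0.18), and for MMP9 against the lower doses without 40Gy-2 (0.16) and 40Gy-3 (0.15). The cause was not tested.

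Counts over all genes moved most. With all 11 libraries as separate samples 492, 353 and 861 genes were called at 20, 30 and 40 Gy against control and 548 for the mean of the doses. Without 20Gy-3 and 30Gy-3, which leaves 20 Gy with 2 libraries and 30 Gy with 1 averaged sample that is taken to vary like the others, these were 56, 8, 122 and 34, with 201 for 40 Gy against the lower doses and 1 for 30 Gy against 20 Gy. With single libraries left out they ranged from 48 to 1162, 14 to 515, 73 to 2222 and 25 to 1045, and from 431 to 4077 and 0 to 2. The same replicate numbers occur in all groups. Over 15 same-number pairs of libraries, the deviations of the genes from their group means correlated between -0.616 and 0.645, only 7 above 0.1. The numbers were therefore not taken as a pairing. A replicate block, fitted with all 11 libraries as separate samples, gave 244 genes at 30 Gy against control, where the same fit without the block gave 353, and a rise of 1.44 for CSF3R against the lower doses in both. Of the marker calls in that fit, the block ended the call of S100A12 against control (limma adjusted p = 0.063 against 0.0339). Alternatives were also run on the called list genes, and on MPO, not called, at 20 Gy and over the mean of the doses against control. Of these, 523 values stayed called or uncalled as in the main fit, 144 lost a call and 0 turned. Depth limits could not be computed, and values near 0 depend on the pseudocount.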
